A study of Mus musculus with 8 samples.

Results

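The genes described here run the cell cycle: 58 mouse genes that control entry into DNA synthesis, copy the genome, condense it and divide it. They were matched by gene symbol to a table of 11756 genes, and 52 of the 58 were found. The other members, Mcm2, Plk1, Bub1, Bub1b, Cdc20 and Anln, were not analysed here. The table holds RNA levels in 8 libraries of bone marrow cells from femurs and tibias of C57BL/6 mice, sorted by flow cytometry for CD11c, an integrin of dendritic cells and some macrophages. On culture day 6, 4 libraries' cells were loaded for 24 h with acetylated low density lipoprotein (acLDL), a chemically altered lipoprotein that enters cells through scavenger receptors, and 4 were unloaded controls. Per the series' design text, acLDL mimics an atherosclerotic environment, and the comparison asks how the sorted cells respond to it. No label says which animal or culture a library came from, so the p-values reflect only library-to-library spread, part of which can be technical.

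Cells commit to division in G1, when D-type cyclins with CDK4 or CDK6 inactivate the retinoblastoma proteins and free E2F factors. E2F drives genes of S phase, among them the MCM helicase that unwinds DNA, the sliding clamp PCNA and ribonucleotide reductase, which makes deoxynucleotides. Genes of G2 and mitosis follow later under B-MYB, FOXM1 and the MuvB complex, which binds the cell cycle genes homology region (CHR) beside CCAAT boxes that NF-Y binds. In bone marrow cultures given growth factors, precursors divide and then leave the cycle as they mature.

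Promoters of the members showed these classes in their letters only in part. RefSeq promoters (GRCm38.p6), from 250 bases before to 50 bases after a start, were at hand for 46 of the 58 members, counted whether or not the gene is in the table. An E2F-type motif (TTTGGCGC, TTTCCCGC, TTTCGCGC or TTTGCCGC, either strand) stood in 4 of 8 replication promoters, those of Mcm3, Mcm5, Mcm6 and Mcm7. It stood in 1 of 19 mitosis promoters, that of Cdk1, and in 2.60% of all 27025 genes with a promoter. The CHR letters TTTGAA stood in 14 of 19 mitosis promoters (73.7%) and in 1 of 8 replication promoters (12.5%), against 20.2% of all. The variant TTTAAA stood in 7 of 19 and in 2 of 8, against 14.9% of all. CCAAT, on either strand, stood in 16 of 19 mitosis promoters and in 8 of 8 replication promoters, against 41.1% of all. A match describes the letters only and shows no bound factor.

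Bases -160 to -1, counted from the start, are shown for 2 helicase genes that differ in their direction between the groups, for the mitosis genes Ccnb1 and Ube2c, and for Hmgb2, the member with the smallest p. Capitals mark CCAAT boxes and, in the Mcm genes, E2F-type motifs or, in the others, CHR letters, on either strand.
Mcm5 (chr8:75109349-75109508, plus strand): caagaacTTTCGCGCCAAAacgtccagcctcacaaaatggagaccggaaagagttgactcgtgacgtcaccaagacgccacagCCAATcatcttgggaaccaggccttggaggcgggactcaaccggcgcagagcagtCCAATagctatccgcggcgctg
Mcm6 (chr1:128359706-128359865, minus strand): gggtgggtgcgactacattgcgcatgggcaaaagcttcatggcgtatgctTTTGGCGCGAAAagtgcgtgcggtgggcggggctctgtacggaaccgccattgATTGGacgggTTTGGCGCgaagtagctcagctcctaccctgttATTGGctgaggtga
Ccnb1 (chr13:100786487-100786646, minus strand): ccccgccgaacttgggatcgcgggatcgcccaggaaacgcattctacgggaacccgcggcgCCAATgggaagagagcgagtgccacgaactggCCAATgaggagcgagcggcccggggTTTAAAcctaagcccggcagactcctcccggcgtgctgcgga
Ube2c (chr2:164769769-164769928, plus strand): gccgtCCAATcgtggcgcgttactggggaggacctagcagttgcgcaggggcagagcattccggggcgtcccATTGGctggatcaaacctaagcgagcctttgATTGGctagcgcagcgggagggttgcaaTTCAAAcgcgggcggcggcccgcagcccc
Hmgb2 (chr8:57511683-57511842, plus strand): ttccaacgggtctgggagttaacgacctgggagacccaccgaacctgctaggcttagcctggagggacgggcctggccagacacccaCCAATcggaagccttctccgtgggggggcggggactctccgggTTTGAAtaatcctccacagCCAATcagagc
In Mcm5, overlapping E2F-type matches began at -153 and -149. In Mcm6 such matches began at -110, -106 and -47, and the pair at -110 and -106 overlapped. In Ccnb1 the letters TTTAAA began at -42, in Ube2c TTCAAA, which is TTTGAA on the other strand, at -29, and in Hmgb2 TTTGAA at -30.

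Deposited values were normalized, with library totals from 3917426 to 4385051, and are called normalized values here. Values of genes with a short transcript differed between libraries. An index of 709 such genes, none of them a member, was 0.84, -1.09, -1.75 and -0.26 in acLDL libraries 1 to 4 and 0.07, 0.73, 0.86 and 0.60 in control libraries 1 to 4. It is the mean log2 deviation, from each gene's mean, of genes whose longest transcript is under 1000 nt. Only coding transcripts were considered where a gene had any. acLDL library 1 therefore lay among the controls, acLDL library 4 below every control, and acLDL libraries 2 and 3 far below them. The mean deviation over all tested genes was 0.24, -0.32, -0.41 and -0.11 with acLDL and -0.03, 0.20, 0.27 and 0.17 in controls. That mean put the libraries in the same order, so the index is not shown to be particular to short transcripts. Itgax, the gene of CD11c, was at 189, 10, 0 and 42.7 with acLDL, while controls ran from 81.5 to 195. Of 11 dendritic cell markers 11 were in the table, and of 10 macrophage markers 10. Their summed values ran from 35057 to 44838 and from 29835 to 62653 with acLDL, and from 31347 to 35361 and from 46733 to 69815 in controls. By gene, 7 of 10 tested dendritic cell markers and 8 of 10 macrophage markers were lower with acLDL, with median log2 fold changes of -2.07 and -1.41, so the higher sum of the dendritic cell list with acLDL runs against most of its genes. Of 12 markers of granulocytes and their precursors 9 were in the table, without Elane, Ctsg and Ly6g, with sums from 8402 to 18098 with acLDL and 11399 to 20294 in controls, and 7 of these 9 were lower (median -1.45). Early progenitor markers, of which 2 of 4 were in the table, summed to 145 to 268 with acLDL and 219 to 351 in controls. Erythroid markers (2 of 8 in the table) summed to 83.7 to 212 with acLDL and 272 to 1480 in controls. For lymphocyte markers (2 of 9) the sums were 29.4 to 76.8 and 16.6 to 31.4, and for mast cell and basophil markers (3 of 5) 21 to 60.2 and 25 to 99.0. No tested gene of these lists passed the threshold, and the part of other cell types in the results was not tested.

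No cell cycle gene passed the threshold in the comparison of acLDL with control. Of the 52 members found, 49 reached 10 or more in 4 or more libraries and were tested with limma on log2(value + 5). At an adjusted p under 0.05 over all genes, 0 of 49 passed, and 0% of all 10091 tested genes did (smallest adjusted p 0.298). At an unadjusted p under 0.05 there were 8 members (16.3%), against 16.4% of all tested genes, so the share of members was that of the background. Of the 8, Cdk6, Mcm5, Tyms, Ccna2, Ccnb1, Aurka and Smc4 were higher with acLDL (14.3%, against 7.42% of all genes) and Hmgb2 was lower (2.04%, against 8.93%). Of the 49, 23 had a higher and 26 a lower mean log2 value with acLDL. The median log2 fold change, acLDL minus control, was -0.20, beside -0.13 over all tested genes. With any single library left out the members' median ran from -0.35 to 0.01. Quantile normalization moved the median of all tested genes to 0.13 and that of the members to 0.09. Among the 49 tested, no overlap between the groups' values was seen for Cdk6, Ccnb1 and Tpx2, all higher with acLDL. That was 6.12%, against 3.44% of all tested genes, and 0 were lower, against 2.20%. In either direction 5.64% of all tested genes did not overlap. Esco2, which the filter left out, did not overlap either and was lower with acLDL. Without the filter, 3 of 52 members lay apart as higher and 1 as lower (together 7.69%, against 5.30% of all genes). In bulk RNA, a change in the share of dividing cells and a change of these RNAs per cell could not be told apart.

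**Figure D1:**
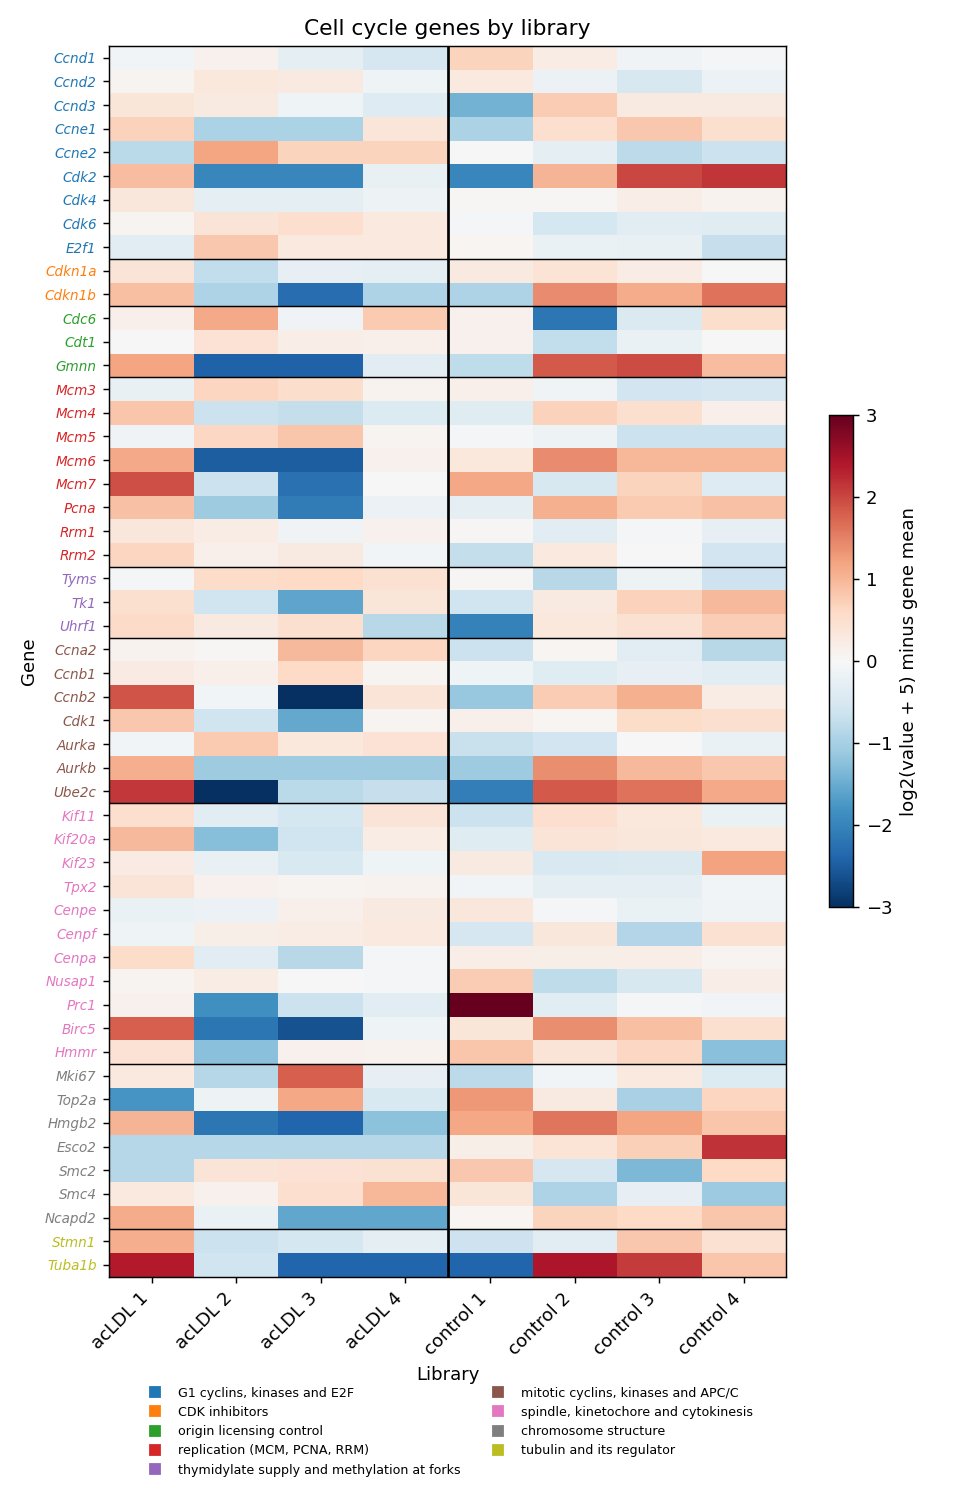
Each cell of the heat map is the log2(value + 5) of 1 of the 52 genes (rows, coloured by role) in 1 library (columns) minus the gene's mean over the 8 libraries, with the colour scale held at -3 and 3. Many rows are lowest in acLDL library 2 or 3 (25 of 52 genes), and acLDL libraries 1 to 4 lie inside the control range for 31, 20, 20 and 28 of 52 genes. The same counts over all genes were not taken.

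The libraries of a group did not move as one. Of the 52 genes, 25 had their lowest value (the first where tied) in acLDL library 2 or 3 and 13 their highest. acLDL library 1 held the highest value of 14 genes and lay inside the control range for 31, against 20, 20 and 28 for acLDL libraries 2, 3 and 4. Its mean log2 deviation over the 49 tested members, 0.50, was above that of every control (-0.15 to 0.25), while that of acLDL library 4, -0.11, was inside their range. Over all tested genes this mean was also lowest in acLDL libraries 2 and 3 (-0.32 and -0.41), with acLDL library 1 at 0.24 and controls from -0.03 to 0.27. Counts of lowest, highest and in-range genes were not taken over all genes, so they are not shown to be particular to the members. At least 1 library was listed at 0 for 15 of the 52 genes, acLDL library 3 for 11 of them and as the only such library for 3. In acLDL libraries 2 and 3, 17.3% and 21.2% of members were at 0, against 18.5% and 21.9% of all genes in the table. Control libraries 2 and 3 had no member at 0, against 11.4% and 5.63% of all genes. Without regard to acLDL library 1, the other 3 acLDL libraries lay all above every control for 9 of the 49 tested members and all below for 9, together 36.7%, against 14.0%, 18.9% and together 33.0% of all tested genes. No deposited value lies between 0 and 5, so a value listed at 0 may stand for a low estimate.

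None of the 8 replication genes passed, and their fold changes had both signs. MCM2 to MCM7 form 1 ring-shaped helicase loaded at origins, and of the subunits measured Mcm3 and Mcm5 had higher and Mcm4, Mcm6 and Mcm7 lower mean log2 values with acLDL. In the order of libraries 1 to 4, Mcm5 (chromosome 8, 75109569 to 75128439, plus strand, GRCm38) was at 467, 777, 889 and 532 with acLDL and 489, 452, 320.0 and 320.2 in controls. acLDL libraries 2 to 4 lay above every control, and acLDL library 1 lay within their range. The log2 fold change was 0.72 (SE 0.27, 95% interval 0.12 to 1.33, limma's adjusted p = 0.298), from means of 666 ± 199.5 (SD, n = 4) and 395 ± 88.2. Mcm3 was at 91.9, 173, 158 and 118 with acLDL and 121, 102, 71.2 and 75.6 in controls, with a log2 fold change of 0.52 (SE 0.29). For this subunit acLDL libraries 1 and 4 lay inside the control range. Mcm6 (chromosome 1, 128331590 to 128359664, minus strand) was at 56.2, 0, 0 and 25.5 with acLDL and 29.6, 69.9, 50.5 and 50.5 in controls. With means of 20.4 ± 26.7 (SD, n = 4) and 50.1 ± 16.4, Mcm6 had a log2 fold change of -1.85 (SE 0.84, 95% interval -3.75 to 0.04, limma's adjusted p = 0.298). Here acLDL libraries 2, 3 and 4 lay below every control and acLDL library 1 within their range. Mcm4 was at 57.1, 17.3, 16.2 and 21.2 with acLDL and 22.2, 51.5, 43.4 and 33.5 in controls, with a log2 fold change of -0.47 (SE 0.45). Mcm7 was at 85.0, 10, 0 and 18.8 with acLDL and 47.5, 12.0, 32.6 and 13.1 in controls, with acLDL library 1 above and acLDL libraries 2 and 3 below every control. Its log2 fold change of -0.48 (SE 0.85) turned to 0.06 after quantile normalization of the libraries and to 0.96 with the short-transcript index as a covariate.

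Pcna, the clamp that holds DNA polymerase on its template (chromosome 2, 132249162 to 132253314, minus strand), was at 1799, 463, 223 and 860.5 with acLDL and 813, 2045, 1675 and 1798 in controls. acLDL library 1 lay inside the control range, control library 1 lay below acLDL library 4, and acLDL libraries 2 and 3 were the lowest. Group means of 836 ± 694 (SD, n = 4) and 1583 ± 536 gave a log2 fold change of -1.23 (SE 0.59, 95% interval -2.57 to 0.11, limma's adjusted p = 0.30). Pcna has processed copies in the genome, so its level is uncertain. The large and small subunits of ribonucleotide reductase, Rrm1 and Rrm2, both had higher mean values with acLDL. Rrm1 was at 108, 98.4, 78.5 and 92.0 with acLDL and 87.0, 66.9, 81.7 and 69.7 in controls (log2 fold change 0.29 (SE 0.23)), and Rrm2 at 92.1, 63.6, 70.5 and 54.2 with acLDL and 33.1, 70.8, 57.9 and 36.6 in controls (log2 fold change 0.50 (SE 0.33)). Groups overlapped for both. Of the 8 replication genes, 4 were higher and 4 lower, with a median log2 fold change of -0.09 and a range from -1.85 to 0.72. With the short-transcript index as a covariate 7 were higher and 1 lower, from -0.13 to 0.96, so the signs depended on this term. Among all 10091 tested genes, 4473 were higher without the covariate and 5359 with it.

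**Figure D2:**
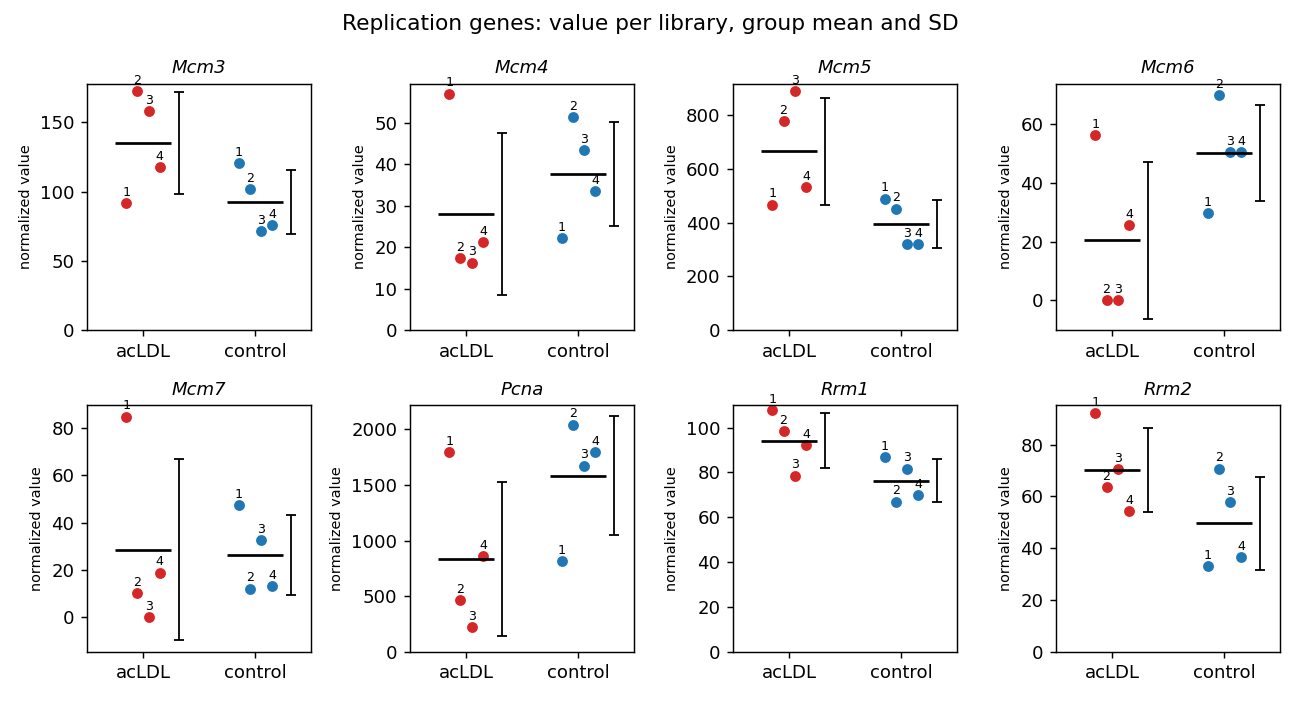
Normalized values of the 8 replication genes (vertical axes, linear) in the 4 acLDL libraries (red) and the 4 controls (blue), numbered by library, with the group mean as a line and the SD as a bar. Mcm3 and Mcm5 have acLDL libraries 2 and 3 on top, while Mcm4, Mcm6 and Pcna have them at the bottom.

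None of the genes that license origins or supply thymidylate passed. CDC6 and CDT1 load the helicase in G1, and geminin, the product of Gmnn, blocks CDT1 until mitosis. Cdc6 was at 74.7, 154, 61.9 and 119 with acLDL and 73.3, 11.1, 48.6 and 98.8 in controls, and Cdt1 at 62.3, 85.6, 71.5 and 69.4 with acLDL and 68.6, 35.2, 53.6 and 63.0 in controls. Both overlapped between groups, with log2 fold changes of 0.98 (SE 0.58) and 0.39 (SE 0.29). Gmnn was at 55.5, 0, 0 and 16.6 with acLDL and 10.8, 90.0, 99.3 and 46.2 in controls, with a log2 fold change of -1.99 (SE 0.94). Its lowest values were in acLDL libraries 2 and 3, and control library 1 lay below acLDL libraries 1 and 4. Tyms, for thymidylate synthase, was at 43.8, 69.2, 71.6 and 64.0 with acLDL and 46.9, 23.5, 40.9 and 28.0 in controls, so acLDL libraries 2 to 4 lay above every control. Means were 62.2 ± 12.6 (SD, n = 4) and 34.8 ± 10.9, a log2 fold change of 0.77 (SE 0.32, 95% interval 0.04 to 1.51, limma's adjusted p = 0.298). Tk1, for the thymidine kinase of the salvage route, was at 103, 46.8, 21 and 96.0 with acLDL and 46.8, 88.9, 121 and 149 in controls, with a log2 fold change of -0.67 (SE 0.53). Uhrf1, which brings DNA methyltransferase to new DNA, was at 25.1, 19.6, 23.3 and 6.46 with acLDL and 0, 20.1, 22.9 and 28.9 in controls, and the groups overlapped (log2 fold change 0.25 (SE 0.68)).

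Among the G1 genes, Cdk6 had values that did not overlap between the groups. Cdk6 (chromosome 5, 3341485 to 3531008, plus strand) was at 129, 161, 176 and 151 with acLDL and 117, 82.4, 96.4 and 93.2 in controls. The log2 fold change was 0.64 (SE 0.22, 95% interval 0.14 to 1.14, limma's adjusted p = 0.298), from means of 154 ± 19.7 (SD, n = 4) and 97.1 ± 14.3. Its partner kinase gene Cdk4 was at 587, 373, 373 and 416 with acLDL and 472, 475, 534 and 499 in controls, which overlapped, with a log2 fold change of -0.20 (SE 0.20). Ranges of the D-type cyclin genes overlapped between the groups. Ccnd1 was at 56.2, 65.7, 47.3 and 40.8 with acLDL and 97.1, 70.7, 55.3 and 57.5 in controls (log2 fold change -0.37 (SE 0.29)), and Ccnd2 at 190.2, 226, 216 and 164 with acLDL and 220.4, 158, 127 and 157 in controls (log2 fold change 0.27 (SE 0.23)). Ccnd3 ran from 35.7 to 62.9 with acLDL and 15 to 85.3 in controls. Ccne2, one of the E-type cyclins that activate CDK2 at the start of S phase, was at 74.3, 308, 214 and 216 with acLDL and 136, 108, 76.0 and 83.4 in controls. Here acLDL libraries 2 to 4 lay above every control and acLDL library 1 below every control, with a log2 fold change of 0.85 (SE 0.42). E2f1, an activating E2F, was at 331, 743, 513 and 519 with acLDL and 436, 368, 358 and 259 in controls, and again acLDL libraries 2 to 4 lay above every control (log2 fold change 0.53 (SE 0.28)). Cdk2 ran from 0 to 31.5 with acLDL and 0 to 80.7 in controls. Ccne1 did not pass the filter on low values, with 0 to 10.7 and 0 to 12.1.

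Both CDK inhibitor genes had lower mean values with acLDL, and neither passed. Cdkn1a, which encodes p21, was at 401, 181, 259.5 and 251 with acLDL and 372, 407, 359 and 305 in controls, with acLDL libraries 2, 3 and 4 below every control and acLDL library 1 within their range. With means of 273 ± 92.1 (SD, n = 4) and 361 ± 42.2, Cdkn1a had a log2 fold change of -0.44 (SE 0.26, 95% interval -1.02 to 0.14, limma's adjusted p = 0.335). Cdkn1b, which encodes p27, was at 40.6, 7.83, 0 and 7.76 with acLDL and 7.71, 59.2, 47.1 and 69.6 in controls, with overlapping groups and a log2 fold change of -1.60 (SE 0.79). With the short-transcript index as a covariate the log2 fold changes went to -0.14 for Cdkn1a and -0.16 for Cdkn1b. Without acLDL libraries 2 and 3 they were -0.18 and -0.81.

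Of 7 tested mitotic cyclins, kinases and their partner Ube2c, 3 had higher and 4 lower mean log2 values with acLDL, and none passed. With the short-transcript index as a covariate all 7 were higher, and again none passed. The covariate also raised the number of higher genes among all 10091 tested, from 4473 to 5359. Cyclins A2 and B1 activate CDK1 for entry into mitosis. Ccna2 (chromosome 3, 36564865 to 36572150, minus strand) was at 846, 809.5, 1560.4 and 1242 with acLDL and 502, 826, 629 and 442 in controls. Groups overlapped through acLDL library 2 and control library 2 only. Group means of 1115 ± 356 (SD, n = 4) and 599.6 ± 169.9 gave a log2 fold change of 0.88 (SE 0.28, 95% interval 0.23 to 1.52, limma's adjusted p = 0.298). Ccnb1 was at 139.9, 131, 178 and 123 with acLDL and 107, 89.4, 96.8 and 91.6 in controls, and every acLDL library lay above every control. Means were 143 ± 24.3 (SD, n = 4) and 96.1 ± 7.68, a log2 fold change of 0.54 (SE 0.22, 95% interval 0.05 to 1.03, limma's adjusted p = 0.298). Their kinase gene Cdk1 was at 85.8, 29.6, 12.9 and 50.4 with acLDL and 52.6, 49.0, 71.6 and 67.7 in controls, with overlapping groups and a log2 fold change of -0.62 (SE 0.49), which turned to 0.32 with the covariate and to 0.14 without acLDL libraries 2 and 3. Ccnb2, the second B-type cyclin, ran from 0 to 155 with acLDL and 14.4 to 85.5 in controls.

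Aurka, the kinase of centrosomes and spindle poles, was at 107, 200.4, 142 and 154 with acLDL and 70.1, 74.9, 113 and 97.6 in controls. Only acLDL library 1 fell within the range of the controls. The log2 fold change was 0.72 (SE 0.27, 95% interval 0.11 to 1.34, limma's adjusted p = 0.298), from means of 151 ± 38.5 (SD, n = 4) and 88.8 ± 19.9. Aurkb, the kinase of the chromosomal passenger complex, was listed at 17.3 in acLDL library 1 and at 0 in the other acLDL libraries, with controls from 0 to 22.8. Ube2c, the ubiquitin-conjugating enzyme that works with the anaphase-promoting complex, was at 192, 0, 20.6 and 22.8 with acLDL and 5.73, 157, 133 and 93.8 in controls, with a log2 fold change of -1.27 (SE 1.19). The highest and the lowest of these values are both with acLDL, in libraries 1 and 2.

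For spindle and cytokinesis genes no member reached an unadjusted p under 0.05. Tpx2, a spindle assembly factor that activates Aurora A, was at 490.5, 406, 392 and 399.8 with acLDL and 353, 308, 311 and 353 in controls, so all acLDL libraries lay above all controls. With means of 422 ± 46.0 (SD, n = 4) and 331 ± 24.9, Tpx2 had a log2 fold change of 0.34 (SE 0.17, 95% interval -0.05 to 0.73, limma's adjusted p = 0.303). Cenpa, the histone variant of centromeres, was at 571, 306, 214 and 372 with acLDL and 444, 439, 442 and 407 in controls, and Nusap1, which bundles spindle microtubules, at 267, 295, 257 and 245 with acLDL and 429.6, 147, 179.9 and 292 in controls. Their log2 fold changes were -0.33 (SE 0.28) and 0.14 (SE 0.33). Kif20a, a kinesin of cytokinesis, was at 302, 59.6, 98.5 and 177 with acLDL and 116, 198, 193 and 185 in controls (log2 fold change -0.33 (SE 0.46)). Birc5, which encodes survivin of the passenger complex, ran from 5.58 to 220.2 with acLDL and 78.2 to 167 in controls. Kif11, Kif23, Cenpf and Hmmr had log2 fold changes between -0.29 and 0.29, with overlapping groups. Those of Kif23 and Hmmr turned positive after quantile normalization, and that of Kif11 turned negative with median-of-ratios size factors. Prc1, a midzone bundler, ran from 0 to 14.5 with acLDL and 9.36 to 12.1 in control libraries 2 to 4, and stood at 153 in control library 1. Cenpe did not pass the filter, at 6.39 to 10.9 with acLDL and 6.48 to 11.6 in controls.

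Of the genes for chromosome structure, Hmgb2 had the smallest p of all members. Hmgb2, a chromatin protein that bends DNA (chromosome 8, 57511907 to 57515999, plus strand), was at 188, 15.9, 13.1 and 35.3 with acLDL and 205, 285, 209 and 164 in controls. acLDL libraries 2, 3 and 4 lay far below every control, and acLDL library 1 lay within their range. Group means of 63.2 ± 84.0 (SD, n = 4) and 216 ± 50.4 gave a log2 fold change of -2.38 (SE 0.69, 95% interval -3.94 to -0.83, limma's adjusted p = 0.298). Smc4, a condensin subunit, was at 262, 236, 303 and 427 with acLDL and 274, 110.1, 179 and 97.3 in controls, with overlap through control library 1. Means were 307 ± 84.9 (SD, n = 4) and 165 ± 81.0, a log2 fold change of 0.96 (SE 0.35, 95% interval 0.15 to 1.76, limma's adjusted p = 0.298). Smc2, the partner of Smc4 in condensin, was at 43.8, 111, 114 and 116 with acLDL and 149.7, 57.4, 29.4 and 128 in controls, with acLDL libraries inside the range of the controls and a log2 fold change of 0.22 (SE 0.53). Ncapd2, another condensin subunit, ran from 0 to 26.9 with acLDL and 10.3 to 21.2 in controls. The proliferation marker Mki67 was at 63.5, 25.7, 189 and 41.9 with acLDL and 27.2, 47.9, 63.5 and 37.4 in controls, and Top2a, the topoisomerase that untangles sister DNA, at 27.4, 95, 241 and 75.7 with acLDL and 267, 128, 51.7 and 169 in controls. For both, at least 1 acLDL library lay outside the range of the controls, and the log2 fold changes were 0.49 (SE 0.56) and -0.62 (SE 0.66). With the index as a covariate that of Top2a went to -1.93 (SE 0.43, limma's adjusted p = 0.907), and it went to -1.43 without acLDL libraries 2 and 3. Esco2, which acetylates cohesin, was listed at 0 in every acLDL library and at 5.17, 6.96, 9.82 and 35.6 in controls. It did not pass the filter and was not tested, and no fold is given against a group listed at 0.

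Stmn1, a microtubule-destabilizing protein gene, was at 304, 88.4, 96.0 and 115 with acLDL and 90.0, 113, 251 and 195 in controls (log2 fold change -0.18 (SE 0.46)). Tuba1b, an alpha tubulin gene, was at 130.1, 12.1, 0 and 0 with acLDL and 0, 133, 107 and 40.9 in controls (log2 fold change -1.49 (SE 1.32)). Its sequence is close to other alpha tubulin genes, so its level is uncertain. The direction for Stmn1 turned to 0.06 after quantile normalization. In both genes acLDL library 1 stood among the highest values and control library 1 among the lowest.

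The contrast of replication with mitosis genes did not separate the groups. Of 17 tested mitosis genes (cyclins A2, B1 and B2, mitotic kinases, and spindle, kinetochore and cytokinesis genes), 7 were higher and 10 lower, with a median log2 fold change of -0.29, against -0.09 for the 8 replication genes. After quantile normalization these medians were 0.09 and 0.32, beside 0.13 over all tested genes. Per library, the mean log2 deviation of replication genes was 0.68, -0.40, -0.75 and -0.03 in acLDL libraries 1 to 4 and 0.04, 0.30, 0.21 and -0.04 in controls. For mitosis genes it was 0.66, -0.64, -0.58 and 0.02 with acLDL and -0.09, 0.27, 0.23 and 0.14 in controls. Over all tested genes the same mean was 0.24, -0.32, -0.41 and -0.11 with acLDL and -0.03, 0.20, 0.27 and 0.17 in controls, so acLDL libraries 2 and 3 were the lowest there too. Replication minus mitosis was 0.01 ± 0.17 (SD, n = 4) in acLDL libraries and -0.01 ± 0.13 in controls. This difference of 0.02 is smaller than the spread between libraries of either group. Both means were highest in acLDL library 1 and lowest in acLDL libraries 2 and 3, while the short-transcript index was lowest in the latter and 0.84 in the former. The part of that index in the means was not tested.

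**Figure D3:**
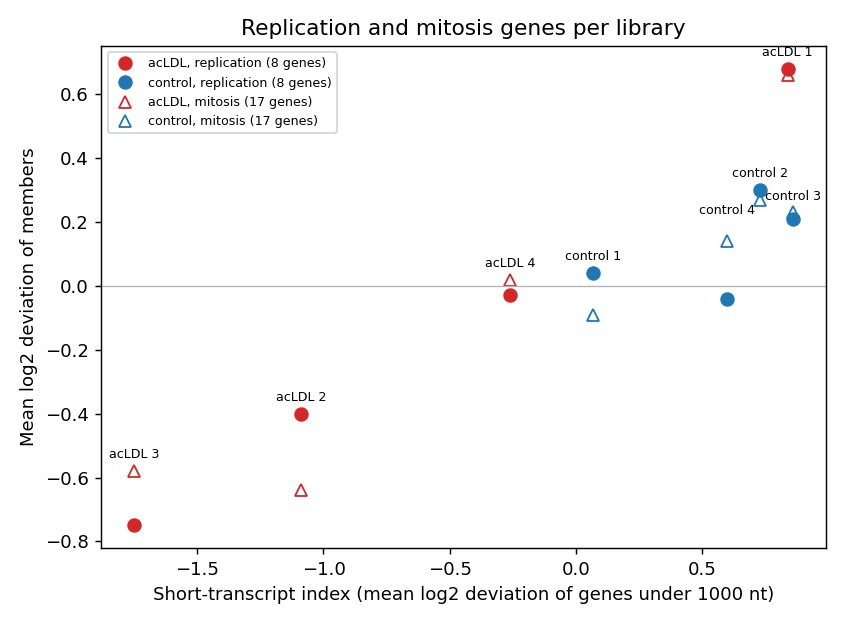
Mean log2 deviation of 8 replication genes (filled circles) and 17 mitosis genes (open triangles) per library (vertical axis) against the short-transcript index (horizontal axis, log2 deviation), with acLDL in red and controls in blue. Both gene groups lie low in acLDL libraries 2 and 3, where the index is -1.09 and -1.75, and high in acLDL library 1.

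Calls on single members depended on acLDL library 1. Without it, 9 of 49 members passed limma's adjusted threshold (18.4%), against 21.7% of all tested genes, so the share of members did not exceed the background. Ccne2 (log2 fold change 1.26), Ccna2 (0.99), Mcm5 (0.88) and Aurka (0.87) were higher, and Hmgb2 (-3.12), Gmnn (-2.71), Mcm6 (-2.54), Birc5 (-2.42) and Pcna (-1.73) were lower. Of the higher ones that is 8.16% of members, against 7.28% of all genes, and of the lower ones 10.2%, against 14.4%. Adjusted p ran from 0.015 for Hmgb2 to 0.050 for Aurka. These libraries were also those with a low short-transcript index. With the index as a covariate in all 8 libraries, log2 fold changes went to 0.12 for Ccne2, 0.70 for Ccna2, 0.27 for Mcm5 and 0.58 for Aurka. They went to -0.98 for Hmgb2, -0.07 for Gmnn, -0.13 for Mcm6, 0.37 for Birc5 and 0.09 for Pcna, and 0 of 49 members passed, as 0% of all genes. Because the index was lower with acLDL (mean -0.56 ± 1.12 against 0.56 ± 0.35, SD, n = 4), such an adjustment can also take away a difference between the groups.

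**Figure D4:**
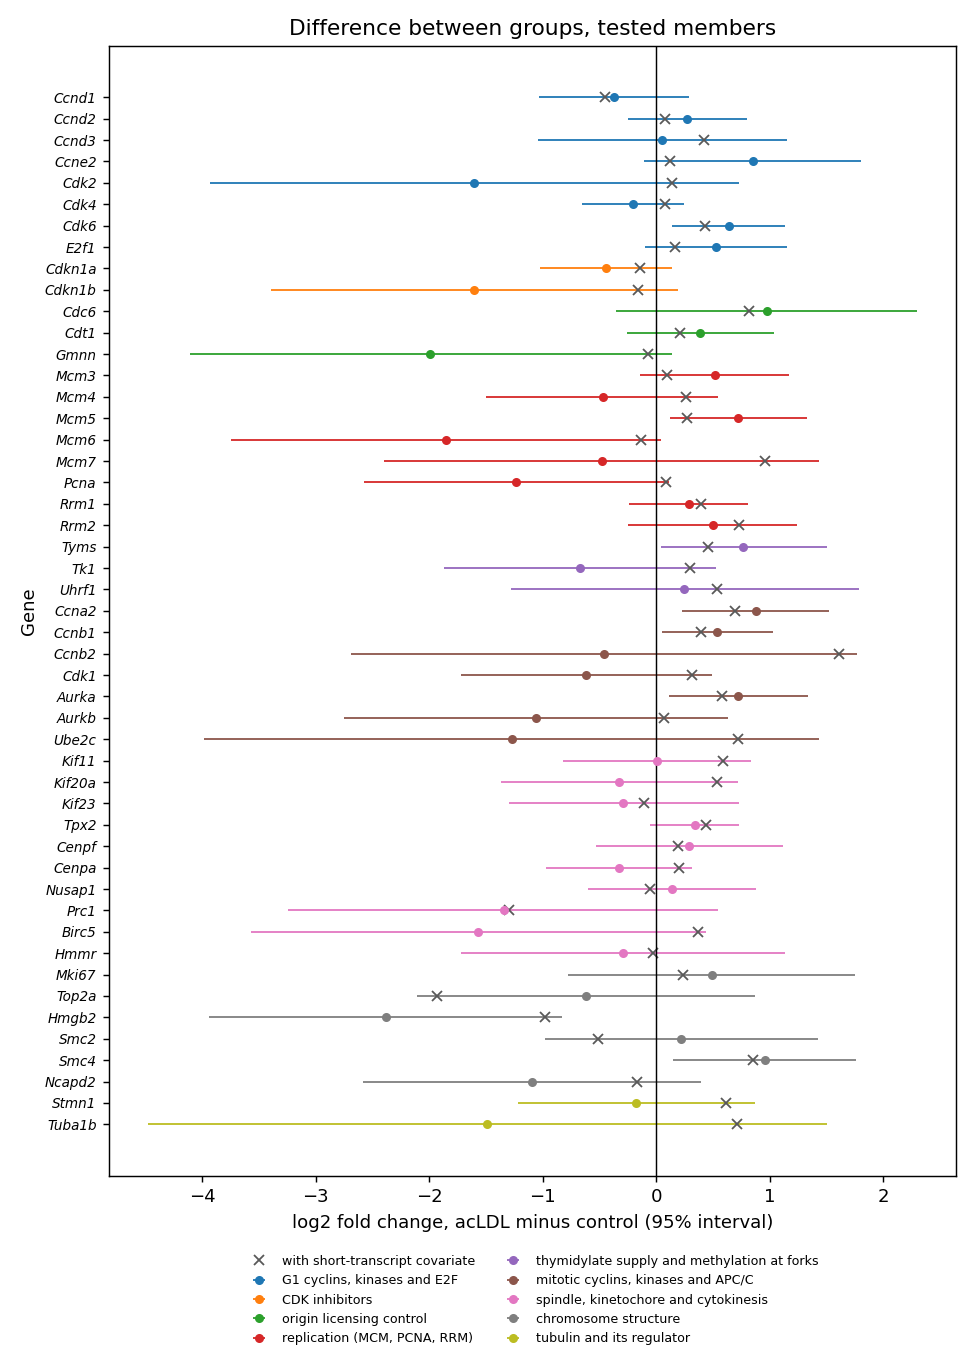
Points are the log2 fold change (acLDL minus control, on log2(value + 5)) of the 49 tested genes, coloured by role, with 95% intervals from limma without adjustment for many genes, and crosses are the estimates with the short-transcript index as a covariate. Hmgb2 lies lowest at -2.38. Its cross is at -0.98. Crosses of Gmnn, Mcm6 and Pcna lie between -0.13 and 0.09, that of Prc1 stays at -1.30 beside a point at -1.34, those of Ube2c and Tuba1b pass to 0.72 and 0.71, and that of Top2a lies lower than its point, at -1.93.

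Other genes of the same processes, from a list of 180 without the members, gave no call either. Of 142 tested, 0 passed limma's adjusted threshold, 73 were higher and 69 lower, with a median log2 fold change of 0.03. At an unadjusted p under 0.05 there were 17 higher (12.0%, against 7.42% of all tested genes) and 3 lower (2.11%, against 8.93%). The groups did not overlap for 12 genes, all higher (8.45%, against 3.44% of all genes). For 56 further mitosis genes the median was 0.33, for 47 further replication genes 0.17, and for 39 genes of G1 and checkpoint control -0.42. Cenpw, a kinetochore subunit, was at 745, 1353, 853 and 582 with acLDL and 488, 459, 327 and 409 in controls, with no overlap (log2 fold change 1.01 with SE 0.27, limma's adjusted p = 0.298). Rad21, a cohesin subunit, was at 1052, 2024, 2527 and 1719 with acLDL and 1003, 755, 933 and 995 in controls, also without overlap (log2 fold change 0.93, SE 0.27). Rpa2, which coats single-stranded DNA, was at 164, 552, 875 and 599.7 with acLDL and 173, 129.5, 163 and 141 in controls, with acLDL library 1 inside the range of the controls and the other acLDL libraries far above it (log2 fold change 1.60, SE 0.46). Lower were Rrm2b, the reductase subunit that p53 induces, at 24.2 ± 19.0 (SD, n = 4) and 67.9 ± 26.7, the clamp loader gene Rfc3 at 31.8 ± 23.3 and 62.7 ± 11.6, and Pold2 of DNA polymerase delta at 16.9 ± 29.2 and 56.5 ± 39.1. Each overlapped between the groups, with acLDL library 1 inside the control range, and Pold2 was at 0 in acLDL libraries 2 and 3. Their log2 fold changes of -1.49, -1.05 and -2.09 went to -0.66, -0.32 and -0.46 with the index as a covariate. Those of Cenpw, Rad21 and Rpa2 went to 0.74, 0.41 and 0.71. With the index as a covariate the medians were 0.25 for mitosis, 0.12 for replication and 0.05 for G1 genes. Over all tested genes the median was then 0.03, and no gene passed. Without acLDL library 1, 22 of the 142 passed (15.5%, against 21.7% of all tested genes), 12 higher and 10 lower, among them the 6 named here.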

How the data were processed

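RNA of 8 libraries, 4 per group, was extracted on RNeasy columns and made into libraries with the Lexogen QuantSeq V2 kit for the 3' end of messages, per the labels' protocols. The series' design text says 5' instead. The tools listed in the submitters' processing notes are bcl2fastq 2.20 and kallisto, with the build mm10 (GRCm38). For annotation, filters and normalization, nothing is given in the sources used here. The authors deposited 1 normalized signal per gene symbol and library for 11756 genes. These values are not whole and hold nothing between 0 and 5, so they are not counts, no count model was used, and totals do not give read depth.

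Genes at 10 or more in 4 or more libraries (10091) were tested with limma 3.58.1 in R 4.3.3 on log2(value + 5), with a variance trend, robust moderation and the group as the only term. Fold changes are on this scale and understate those of low genes. The Benjamini-Hochberg adjustment ran over all tested genes at 0.05. The fit was tested on simulated data with a capped spread between libraries, which says nothing of its power here. Medians and means over lists have no test, because members and lists were chosen with earlier results of these data known. Named in full were the replication genes, up to 4 genes per role with the highest mean, genes at an unadjusted p under 0.05, and Mki67, Top2a, Cdk1, Cdkn1a and Ccnd1; other members by range, and up to 3 further genes per direction. GENCODE mouse release 21 (GRCm38) gave coordinates and transcript lengths, and 96.6% of genes matched it by symbol. Python 3.11.15 was used for summaries. Alternatives were a pseudocount of 1, no filter, quantile normalization, median-of-ratios size factors, a replicate block, leaving out libraries and a short-transcript covariate.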

Additional observations from a re-analysis of the deposited data

Results flagged for a closer look

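In 7 of 104 groups of 4 libraries (52 genes in 2 groups), 1 library lay apart from the other three of its group on log2(value + 5), by Dixon's criterion at the 95% level. Chance alone flags about 1 in 20 groups. In controls, library 1 was apart for Prc1, at 153 against 9.36 to 12.1, for Kif20a, at 116 against 185 to 198, and for Uhrf1, listed at 0 against 20.1 to 28.9. Control library 4 was apart for Cenpa, at 407 against 439 to 444. With acLDL, library 1 was apart for Tpx2, at 490.5 against 392 to 406, for Smc2, at 43.8 against 111 to 116, and for Aurkb, at 17.3 with the others listed at 0.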

How the results depend on the processing

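Leaving out each library in turn gave 0 to 9 members past limma's adjusted threshold, 9 without acLDL library 1 and 0 otherwise, and medians from -0.35 to 0.01 for all members, -0.30 to 0.28 for replication and -0.48 to 0.04 for mitosis, with a replication minus mitosis difference from -0.06 to 0.08. The replicate block gave 0 members past the threshold and medians of -0.20, -0.09 and -0.29. Deviations of libraries with the same number correlated at -0.55, -0.21, -0.28 and 0.03, and 0 of 8 correlated best with their own number. No pairing by number was seen, but this check cannot exclude a shared animal or culture. A single axis held 62.6% of the variance between libraries and can hide a weaker link. The short-transcript covariate moved the median of all tested genes from -0.13 to 0.03. This covariate moved that of the members from -0.20 to 0.24 and that of the mitosis genes from -0.29 to 0.37. With it, the log2 fold change of 17 of 49 members changed sign: Cdk2 to 0.14, Cdk4 to 0.08, Mcm4 to 0.26, Mcm7 to 0.96, Pcna to 0.09, Tk1 to 0.30, Ccnb2 to 1.61, Cdk1 to 0.32, Aurkb to 0.07, Ube2c to 0.72, Kif20a to 0.54, Cenpa to 0.20, Nusap1 to -0.05, Birc5 to 0.37, Smc2 to -0.51, Stmn1 to 0.62 and Tuba1b to 0.71. Without acLDL libraries 2 and 3 it changed sign for 11: Mcm7 to 0.73, Tk1 to 0.08, Ccnb2 to 0.91, Cdk1 to 0.14, Ube2c to 0.08, Kif20a to 0.44, Cenpa to 0.09, Birc5 to 0.05, Hmmr to 0.13, Smc2 to -0.09 and Stmn1 to 0.32. Quantile normalization changed the sign for Mcm7 (0.06), Kif23 (0.13), Hmmr (0.09) and Stmn1 (0.06), and median-of-ratios size factors for Kif11 (-0.03). A pseudocount of 1 and no filter on low values changed no sign. With a pseudocount of 1, Gmnn (-3.08) and Mcm6 (-2.97) lay below Hmgb2 (-2.57). With single libraries left out, these log2 fold changes crossed 0: Ccnb2 (-1.17 to 0.50), Ccnd3 (-0.41 to 0.32), Hmmr (-0.76 to 0.08), Kif11 (-0.20 to 0.19), Kif20a (-0.71 to 0.04), Kif23 (-0.49 to 0.07), Mcm7 (-1.20 to 0.19), Mki67 (-0.03 to 0.86), Nusap1 (-0.09 to 0.41), Smc2 (-0.19 to 0.54), Stmn1 (-0.57 to 0.07) and Uhrf1 (-0.38 to 0.57). The cause of these shifts was not tested. Low values limit the members listed at 0 in some libraries, and counting error has no interval here, since normalized values carry no read depth.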
